A study of Mus musculus with 9 samples.

Results

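Transcripts of 9 genes of the hormone-sensing part of the mammary epithelium were measured in lactating glands of WT mice and of mice that express human NAG-1. The genes were the steroid hormone receptors Esr1, Pgr, Nr3c1 and Nr3c2, the paracrine ligands Areg, Tnfsf11 and Wnt4, and the luminal transcription factors Gata3 and Foxa1. Every array probe whose annotated gene name was one of these 9 was used, which gave 17 probes of the 41174 on the array, or 9 of its 27962 gene names. RNA came from mammary gland number 4 on lactation day 2, with 1 array for each dam. The WT group held 4 wild type dams and the hNAG-1 group held 5 transgenic dams, and all 9 had the strain background that the labels spell C57BL/7. The transgene is expressed ubiquitously and encodes human NAG-1, a secreted member of the TGF-β superfamily also named GDF15. The study kept more than one transgenic line and worked mainly with 1 of them, combining lines in some experiments, and its breeding experiment took glands from dams after the fourth litter. The line and age of each dam on the arrays are not given in the sources used here. For RNA isolation the array methods refer to the section on the glands of that breeding experiment, but they do not state the litter number of the array dams. The RNA of the transgene itself was not analysed here.

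Estrogen receptor alpha, the product of Esr1, and the progesterone receptor, the product of Pgr, are found in a subset of luminal cells. These cells sense ovarian hormones and pass the signal to their neighbors through secreted ligands, mainly amphiregulin (Areg), RANKL (Tnfsf11) and WNT4. Gata3 and Foxa1 encode transcription factors of the luminal lineage, and Foxa1 opens chromatin for estrogen receptor alpha. Nr3c1 encodes the glucocorticoid receptor, which acts together with prolactin signaling in the secretory alveolar cells that fill the gland in lactation. Nr3c2 encodes the mineralocorticoid receptor.

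Esr1, Pgr and Tnfsf11 each had a pair of probes that gave different readings, and the first 30 of the 60 bases of each of these probes are printed here because the reading of those genes turns on which probe is used. Positions are those of the scanner files on mouse build mm7. An annotation of that build was not used here, so exons and untranslated regions are not named. The Esr1 probes lie at chr10:5343241-5343300 and chr10:5345231-5345290 on the minus strand, with starts 1990 bases apart. The Pgr probes lie at chr9:8973735-8973794 and chr9:8987004-8987063 on the plus strand, with starts 13269 bases apart, and the first was designed to a cDNA clone rather than to the RefSeq transcript. The Tnfsf11 probes lie at chr14:72958725-72958784 and chr14:72958504-72958563 on the minus strand, only 221 bases apart. No bases are in capitals because no part of a probe is singled out.
Esr1 A_52_P237077: ttttttgtagacgtttcaaactaccgtgtc
Esr1 A_51_P474658: tccccgaaaggttctgagaatccctgcaac
Pgr A_52_P413840: tgtcatagtagcattgataaaataactctg
Pgr A_51_P213476: gagatgagatcaagctatatccgcgaattg
Tnfsf11 A_51_P465640: acaggttgtgtatatgtaaagtccataggt
Tnfsf11 A_52_P488947: gtcattgcaaagaaatgatagtgtgaaggg

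Values are scaled intensities, the deposited background-subtracted intensity of a probe after every array was brought to the same 75th percentile of 797. The scanner software marks a feature as well above background or not, and a probe without that mark has no measured level. The dimmest mark on an array lay between 14.4 and 31.7. The share of features so marked was 60.3%, 64.6% and 59.8% in hNAG-1 2, hNAG-1 3 and hNAG-1 4. It was 69.0% to 76.1% on the other arrays. Before scaling, the 75th percentile ran from 533 in hNAG-1 1 to 1185 in WT 2. The arrays lay on 3 slides. WT 1 was alone on its slide, hNAG-1 1 to hNAG-1 4 filled another, and the last carried hNAG-1 5 beside WT 2, WT 3 and WT 4, so genotypes could be compared within that slide only. Milk protein and luminal keratin markers carried that mark on all 9 arrays. WT 2 stood apart from the other arrays in its cell type markers. The mean log2 scaled intensity of 7 T lymphocyte markers, with Cd3d the brightest, was 10.36 in WT 2 and 6.52 to 8.45 in the other 8 arrays, and WT 2 was lowest in all 3 lists of epithelial markers. Its mean log2 was 13.65 against 13.99 to 14.50 for 7 luminal markers, 11.80 against 12.50 to 12.86 for 7 myoepithelial markers and 17.48 against 17.83 to 18.25 for 6 secretory alveolar markers. The secretory mean mostly fell as the unscaled 75th percentile rose, from 18.24 in hNAG-1 1 (533) to 17.48 in WT 2 (1185). Each array had 1 to 7 saturated features, and whether secretory markers were among them was not tested.

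Of the 17 probes, 8 were well above background on all 9 arrays, and they belonged to Esr1, Nr3c1, Nr3c2, Gata3 and Wnt4. The Foxa1 probe was well above background in 4 of 4 WT and 3 of 5 hNAG-1 arrays. The other 8 probes carried the mark on 2 arrays at most, and 3 of them on none. Over the whole array, 56.1% of probes carried the mark on all arrays and 18.6% on none. The plot of every probe by array shows these levels as filled and open symbols.

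**Figure D1:**
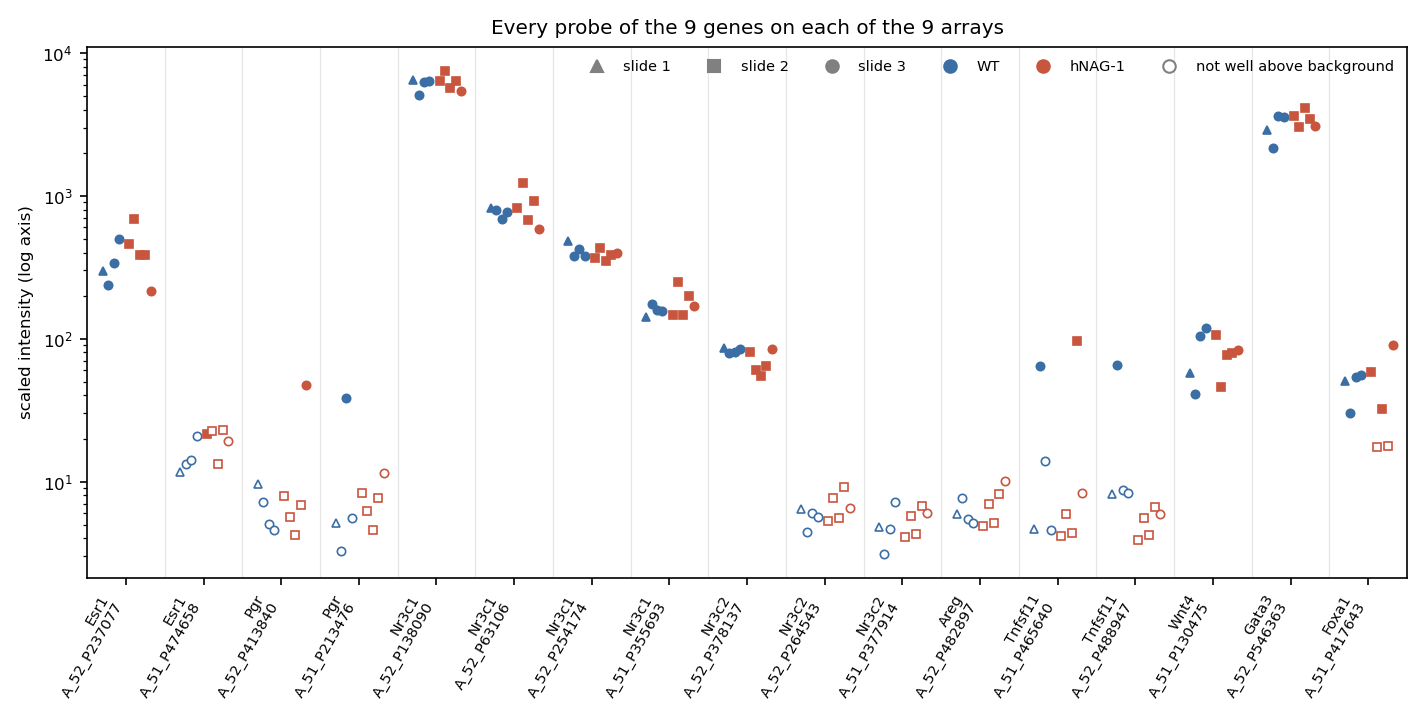
Scaled intensity on a log axis for each of the 17 probes of the 9 genes, with 1 symbol per array, colored by genotype and shaped by slide. Open symbols are arrays on which the probe was not well above background. The 4 Nr3c1 probes and Gata3 were filled on all arrays, while Areg was open on all and Pgr and Tnfsf11 were filled on 1 or 2 arrays each.

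Esr1 was expressed in every gland, and its level varied more between arrays of a genotype than between genotypes. With the brighter probe, the scaled intensity was 298, 238, 339.7 and 501 in WT 1 to WT 4, and 462, 691, 386, 384 and 216 in hNAG-1 1 to hNAG-1 5. The highest and the lowest array were both hNAG-1, so the WT range lay inside the hNAG-1 range. The means were 344 ± 113 (SD, n = 4) for WT dams and 428 ± 173 (SD, n = 5) for hNAG-1 dams, a difference of 0.27 on the log2 scale with a standard error of 0.34. The fold was 1.21, with a 95% interval from 0.714 to 2.04, and neither limma (adjusted p = 0.789) nor an exact two-sided permutation test (p = 0.492) told the genotypes apart. On the shared slide the order was the other way, since hNAG-1 5 at 216 lay below WT 2, WT 3 and WT 4, and the difference with slide as a fixed block was -0.67. The Esr1 difference was 0.074 without hNAG-1 2, 0.11 without WT 2, the array high in lymphocyte and low in epithelial markers, and 0.49 without hNAG-1 5.

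The Esr1 probe is printed on 10 features of each array. Within an array the 10 features had a coefficient of variation of 2.99% to 5.82%. The standard deviation of the log2 intensity was 0.058 over features of an array and 0.545 between arrays of a genotype. Features of an array share its labeling, hybridization and slide, so the first value holds the noise of single spots only, and spread between dams and between hybridizations cannot be told apart. The second Esr1 probe was well above background in hNAG-1 1 alone, at 21.4, and its values over all arrays ran from 11.6 to 23.1.

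**Figure D2:**
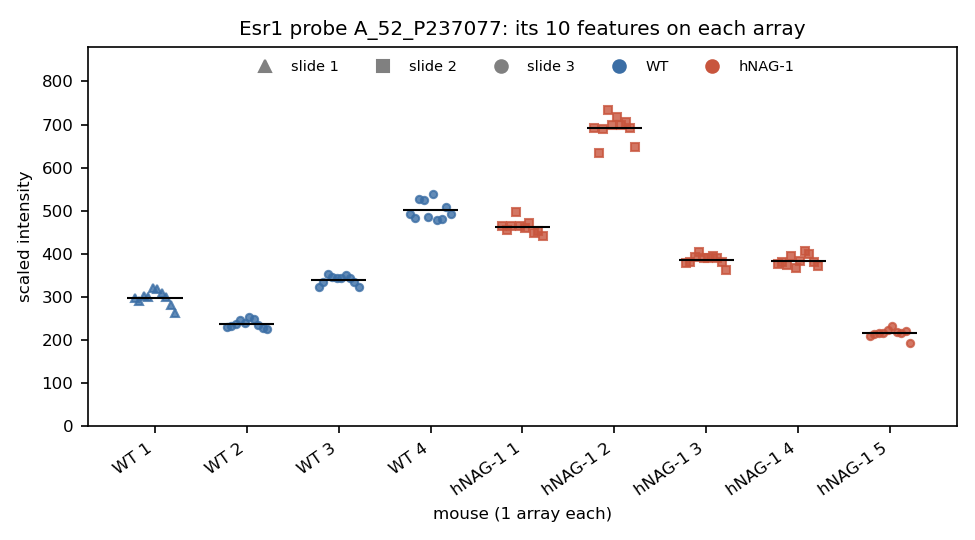
Scaled intensity of the 10 features that carry the Esr1 probe A_52_P237077, by array, with a line at the mean of each array. The features of an array lie close together, from 2.99% to 5.82% in coefficient of variation, while array means run from 216 in hNAG-1 5 to 691 in hNAG-1 2.

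Pgr was not measured above background in most glands of either genotype. Probe A_52_P413840 read 47.5 and was well above background in hNAG-1 5, and it read 4.21 to 9.65 on the other 8 arrays. Probe A_51_P213476 read 38.4 and was well above background in WT 3, and it read 3.29 to 11.5 on the others. The array marked by one probe was not marked by the other: hNAG-1 5 read 11.5 with the second probe and WT 3 read 5.07 with the first. With slide as a fixed block the first probe was the only 1 of the 17 that limma called, with and without adjustment. Without adjustment 7.61% of all probes were called there, and the share called after adjustment was not counted. The Pgr call sets the reading of 1 array, hNAG-1 5, against the 3 WT arrays of its slide. Those read 4.55 to 7.21 and were not well above background, so no size is given for the call.

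Nr3c1 was measured above background on every array with all 4 of its probes, and its levels were much alike in the genotypes. The brightest, A_52_P138090 at chr18:39787242-39787301, read 6436, 5084, 6213 and 6384 in WT 1 to WT 4 and 6349, 7445, 5684, 6315 and 5416 in hNAG-1 1 to hNAG-1 5. The genotypes overlapped, the lowest array was WT 2 and the highest was hNAG-1 2. Its means were 6029.5 ± 638 (SD, n = 4) and 6242 ± 784 (SD, n = 5), and the difference was 0.048 on the log2 scale with a standard error of 0.15. The 95% interval of the fold ran from 0.818 to 1.31.

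The other Nr3c1 probes lie within a span of 3624 bases with it and gave differences of 0.092, -0.097 and 0.18 on the log2 scale, with standard errors of 0.22, 0.14 and 0.19. Adjusted p by limma was 0.745 or higher for all 4. The array hNAG-1 2 was the highest on 3 of the 4 probes, with 1236 on A_52_P63106 against 587 to 914 on the other 8 arrays, and with 249 on A_51_P355693 against 141 to 199. It was also the highest array for Esr1. On A_52_P254174 the highest array was instead WT 1, at 478 against 347 to 432.

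Nr3c2 had 3 probes, of which A_52_P378137 at chr8:75452671-75452730 was well above background on all arrays and the others on none. It read 85.4, 79.2, 81.2 and 85.2 in WT 1 to WT 4 and 81.2, 60.7, 54.9, 64.7 and 84.2 in hNAG-1 1 to hNAG-1 5. The WT arrays lay close together, and hNAG-1 2, hNAG-1 3 and hNAG-1 4 lay below all of them. Those 3 hNAG-1 arrays also had the smallest shares of features well above background, and the part of this in their readings was not tested. The means were 82.8 ± 3.06 (SD, n = 4) and 69.1 ± 12.9 (SD, n = 5), a fold of 0.825 with a 95% interval from 0.638 to 1.07. The log2 difference of -0.28 was -0.038 with quantile normalization, -0.062 with median scaling and -0.10 with normexp background correction, and it was -0.43 with no scaling and -0.35 without hNAG-1 5 (unadjusted p = 0.0593 by limma). This had the smallest p of the 9 probes that carried the mark throughout a genotype, with an exact two-sided permutation p of 0.111 and an adjusted p of 0.661 by limma. All 3 low arrays lay on the slide that held no WT array, and hNAG-1 5 on the shared slide read 84.2 against 79.2 to 85.2 in its WT arrays. The difference with slide as a fixed block was 0.041.

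Of the ligands, Wnt4 alone was measured above background throughout. Its probe spans 569 bases of the genome, at chr4:136674216-136674784. It read 57.4, 41.3, 105 and 118 in WT 1 to WT 4 and 106, 46.2, 76.7, 79.6 and 83.7 in hNAG-1 1 to hNAG-1 5. The hNAG-1 values lay inside the WT range, whose lowest array was WT 2. The means were 80.5 ± 37.0 (SD, n = 4) and 78.4 ± 21.3 (SD, n = 5), and the difference was 0.041 on the log2 scale with a standard error of 0.35. It was -0.24 without WT 2, the array high in lymphocyte and low in epithelial markers, and 0.27 without WT 4. The 95% interval of the fold ran from 0.592 to 1.79, so folds anywhere in that range remain possible.

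Areg, the ligand through which estrogen signals to neighboring cells, was not well above background on any array. Its only probe read 5.16 to 7.66 in WT and 4.87 to 10.1 in hNAG-1. A low reading in whole gland can come from fewer expressing cells, less RNA in each or a weak probe. These cannot be told apart, for this gene or for the others. Esr1 and Nr3c2 each had a probe unmarked on most or all arrays beside a probe marked on all arrays.

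Tnfsf11, which encodes RANKL, was measured above background in WT 2 and in hNAG-1 4 only. Probe A_51_P465640 read 4.69, 64.4, 13.9 and 4.57 in WT 1 to WT 4 and 4.14, 5.89, 4.34, 95.7 and 8.38 in hNAG-1 1 to hNAG-1 5. Probe A_52_P488947 read 8.17, 65.7, 8.73 and 8.32 in WT 1 to WT 4 and 3.89, 5.56, 4.24, 6.65 and 5.93 in hNAG-1 1 to hNAG-1 5. Both probes were bright in WT 2, whereas hNAG-1 4 was bright with one and not well above background with the other.

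Probe A_52_P488947 of Tnfsf11 was the only 1 of the 17 with an unadjusted p under 0.05 by limma. Over the whole array, 5.6% of probes passed that threshold, and those lower in hNAG-1 made up 4.45% of all probes. It was also the only 1 whose genotypes did not overlap, beside 1.35% of all probes. The lowest WT array read 8.17 and the highest hNAG-1 array 6.65, both below the dimmest marked feature of their arrays. The adjusted p by limma was 0.661, and the exact two-sided permutation p of 0.0159 is the smallest that 4 against 5 arrays can give. Since 8 of its 9 arrays were not well above background, neither a difference nor a fold is given.

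Activated T cells also make RANKL, and the arrays with a Tnfsf11 reading differed in lymphocyte markers. The mean log2 of 7 T lymphocyte markers was 10.36 in WT 2 and 8.06 in hNAG-1 4, but WT 1, at 8.45, had no Tnfsf11 reading. All 7 markers were lower in hNAG-1, none of them with an unadjusted p under 0.05, and the list mean ran from 6.95 to 10.36 in WT and from 6.52 to 8.06 in hNAG-1. The 6 B lymphocyte markers had a mean log2 of 9.90 in WT 2 and 5.85 to 7.89 in the others. All 6 were lower in hNAG-1, and 1 of them, Cr2, had an unadjusted p under 0.05 by limma. The part of lymphocytes in the Tnfsf11 readings was not tested.

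**Figure D3:**
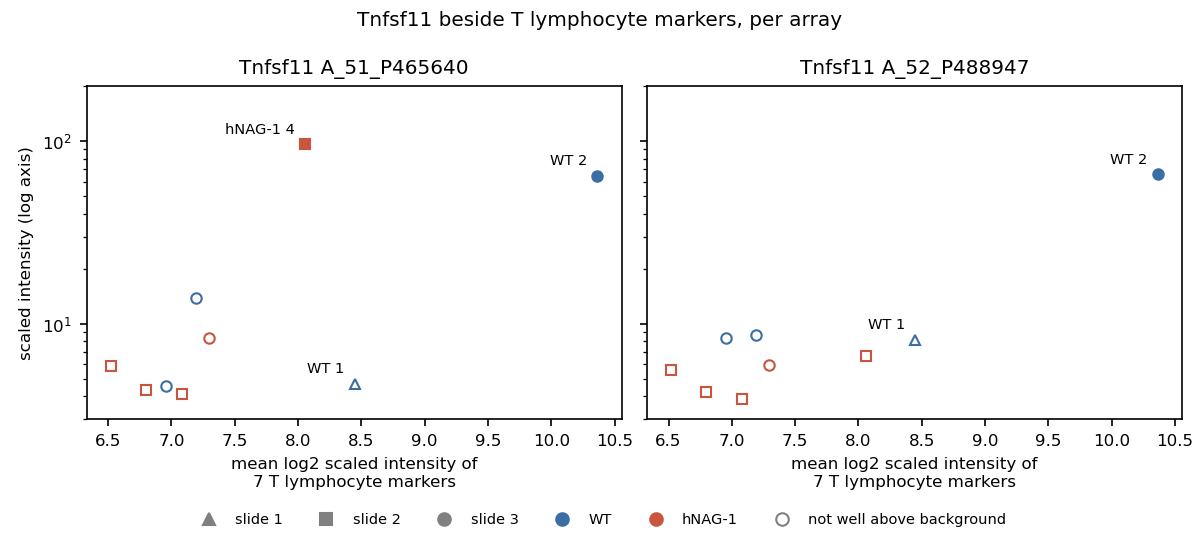
Scaled intensity of each Tnfsf11 probe (log axis) against the mean log2 scaled intensity of 7 T lymphocyte markers, with 1 symbol per array, colored by genotype, shaped by slide and open where the probe was not well above background. WT 2 has the highest marker mean, 10.36, and is filled in both panels, while hNAG-1 4 is filled in 1 panel only.

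Gata3 was measured above background in every gland. Its probe at chr2:9796514-9796573 read 2886, 2142, 3608 and 3546 in WT 1 to WT 4 and 3619.7, 3033, 4083, 3417 and 3094 in hNAG-1 1 to hNAG-1 5. The genotypes overlapped, and WT 2, the array low in epithelial markers, was the lowest. The means were 3045 ± 685 (SD, n = 4) and 3449 ± 428 (SD, n = 5), a fold of 1.15 with a 95% interval from 0.853 to 1.55 and an adjusted p of 0.719 by limma. The log2 difference of 0.20 was 0.042 without WT 2 and 0.037 with slide as a fixed block, and it was 0.42 with median scaling, 0.29 without WT 3 and 0.28 without WT 4.

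Foxa1 was the most variable of the 6 genes with a probe marked throughout a genotype. Its probe at chr12:55476083-55476142 read 50.7, 30.4, 53.6 and 55.7 in WT 1 to WT 4 and 58.4, 17.5, 32.0, 17.7 and 90.0 in hNAG-1 1 to hNAG-1 5. The hNAG-1 arrays reached above and below the WT range. The readings of 17.5 and 17.7, in hNAG-1 2 and hNAG-1 4, were not well above background, and those arrays had the highest values for their dimmest marked feature, 26.6 and 31.7. The means were 47.6 ± 11.7 (SD, n = 4) and 43.1 ± 31.1 (SD, n = 5), and the log2 difference was -0.41 with a standard error of 0.50 and an adjusted p of 0.787 by limma. This difference takes in the 2 readings that were not well above background, and it was -0.023 with normexp background correction, 0.062 with quantile normalization and -0.16 without hNAG-1 2, while it was -0.55 with no scaling and -0.75 without hNAG-1 5. On the shared slide hNAG-1 5, at 90.0, lay above WT 2, WT 3 and WT 4, and the difference with slide as a fixed block was 1.00.

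None of the 17 probes had an adjusted p under 0.05 by limma, against 0.00243% of all probes, and 1 had an unadjusted p under 0.05. Of the 8 probes that carried the mark on all arrays, hNAG-1 had the higher mean for 6 and the lower for 2, with a median log2 difference of 0.070 beside -0.018 over all probes. None of these 8 had an unadjusted p under 0.05, beside 3.84% of the 23086 probes marked on all arrays. Only 3 of the 8 kept their direction with slide as a fixed block, as the plot of differences shows.

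**Figure D4:**
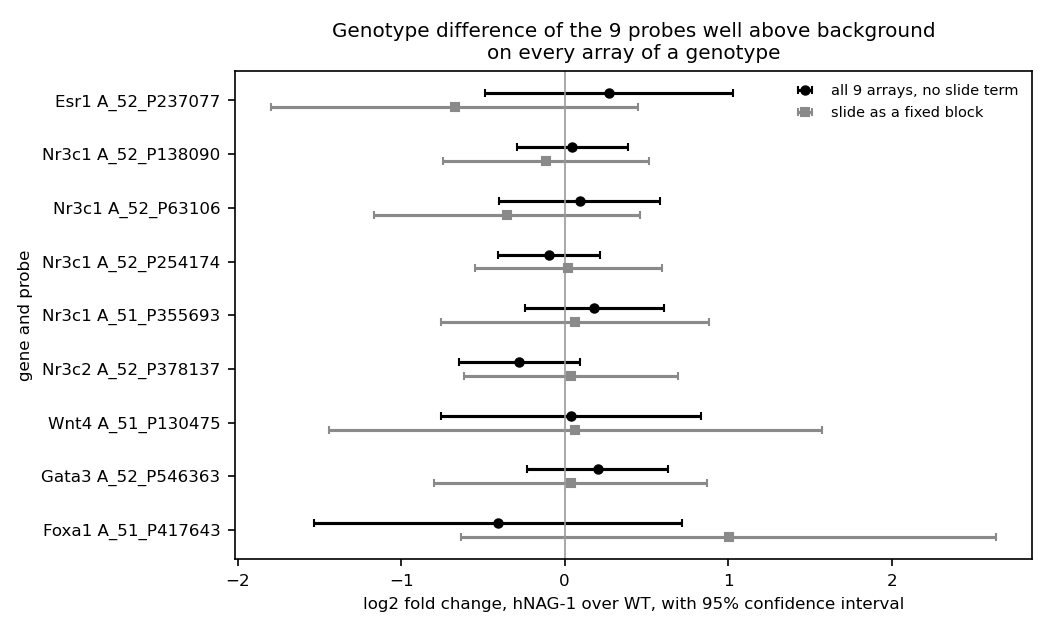
Log2 fold change of hNAG-1 over WT with its 95% confidence interval for the 9 probes marked as well above background throughout a genotype, from the fit to all 9 arrays (black circles) and from the fit with slide as a fixed block (gray squares). All intervals include 0, and Esr1 moves from 0.27 to -0.67 and Foxa1 from -0.41 to 1.00 between the fits.

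Genes that act with these receptors were read from 7 lists, with the brightest probe for each of 100 genes. In all, 8 of the 100 had an unadjusted p under 0.05 by limma, 6 higher and 2 lower in hNAG-1, beside 5.6% of all probes, of which 473 were higher and 1834 were lower. All probes include those marked on no array, whereas the list probes are the brightest of each gene. Among the 23086 probes marked on all arrays the share was 3.84%, and its split by direction was not counted. None had an adjusted p under 0.05, and the lowest was 0.661. The direction of the calls depended on the scaling and on the slide term. With each array scaled to its median instead, 8 list genes were higher and 0 lower, beside 2668 and 1018 of all probes, and with no scaling 0 were higher and 2 lower, beside 59 and 2007. With slide as a fixed block 4 were higher and 0 lower, beside 2846 and 288 of all probes. The genotype term of that fit rests on 1 hNAG-1 array, hNAG-1 5, against the 3 WT arrays of its slide, so its p takes this lone array to vary like the others. The median log2 difference of all probes was -0.018, and it was 0.20 with median scaling, -0.16 with no scaling and 0.19 with slide as a fixed block. The genotypes of 3 list genes did not overlap, beside 1.35% of all probes.

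Of 13 genes that respond to glucocorticoids and mineralocorticoids, 2 had an unadjusted p under 0.05, both higher in hNAG-1. Called or not, 9 had a higher and 4 a lower mean in hNAG-1, beside 47.9% of all probes with a higher mean, and the median log2 difference was 0.26. That median was 0.21 with slide as a fixed block, where all probes had a median of 0.19. All 7 myoepithelial markers, with a median of 0.34 and 1 unadjusted p under 0.05 by limma, that of Myh11, and all 8 adipocyte markers, with a median of 0.35 and none, also had higher means in hNAG-1, and their part in the list's values was not tested. Klf9, a transcription factor induced by glucocorticoids, had an unadjusted p under 0.05 with both of its probes. Probe A_52_P675996 read 1665, 1421, 1555 and 1807 in WT 1 to WT 4 and 2037, 2641, 2888, 1918 and 2150.2 in hNAG-1 1 to hNAG-1 5, with no overlap. Its log2 difference was 0.52 with a standard error of 0.17 (unadjusted p = 0.0127 and adjusted p = 0.661 by limma), and probe A_51_P412200 gave 0.49 with a standard error of 0.16, again with no overlap. With slide as a fixed block the differences were 0.44 and 0.34, with unadjusted limma p of 0.208 and 0.275. Ddit4, a stress-induced inhibitor of mTOR signaling, was the other call of the list, with a difference of 0.44 and a standard error of 0.19 (unadjusted p = 0.045 by limma), and of 0.21 with slide as a fixed block, where it was no longer called (unadjusted p = 0.558 by limma). Its highest WT array, WT 2 at 15010.2, lay above 3 of the 5 hNAG-1 arrays.

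Steroid metabolism held the largest difference among the called genes. Hsd11b1, which encodes the enzyme that regenerates active glucocorticoid inside cells, read 1741, 5398, 4403 and 6169 in WT 1 to WT 4 and 6638, 7156, 8323, 9184 and 9442 in hNAG-1 1 to hNAG-1 5. All 5 hNAG-1 arrays lay above all 4 WT arrays. The means were 4428 ± 1932 (SD, n = 4) and 8149 ± 1229 (SD, n = 5), a fold of 2.02 with a 95% interval from 1.17 to 3.47 (unadjusted p = 0.0165 and adjusted p = 0.661 by limma). The log2 difference was 1.01 with a standard error of 0.35, it was 0.61 without WT 1, and it was 0.84 with slide as a fixed block, where hNAG-1 5 alone stands for hNAG-1 (unadjusted p = 0.0258 by limma). The same contrast fitted to the shared slide alone did not call Hsd11b1. Adipocytes also express Hsd11b1. All 8 adipocyte markers, with Fabp4 the brightest, had a higher mean in hNAG-1 and none had an unadjusted p under 0.05. Their mean log2 ran from 12.06 to 13.51 in WT, with WT 1 the lowest, and from 13.13 to 13.54 in hNAG-1, and their part in the Hsd11b1 difference was not tested.

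**Figure D5:**
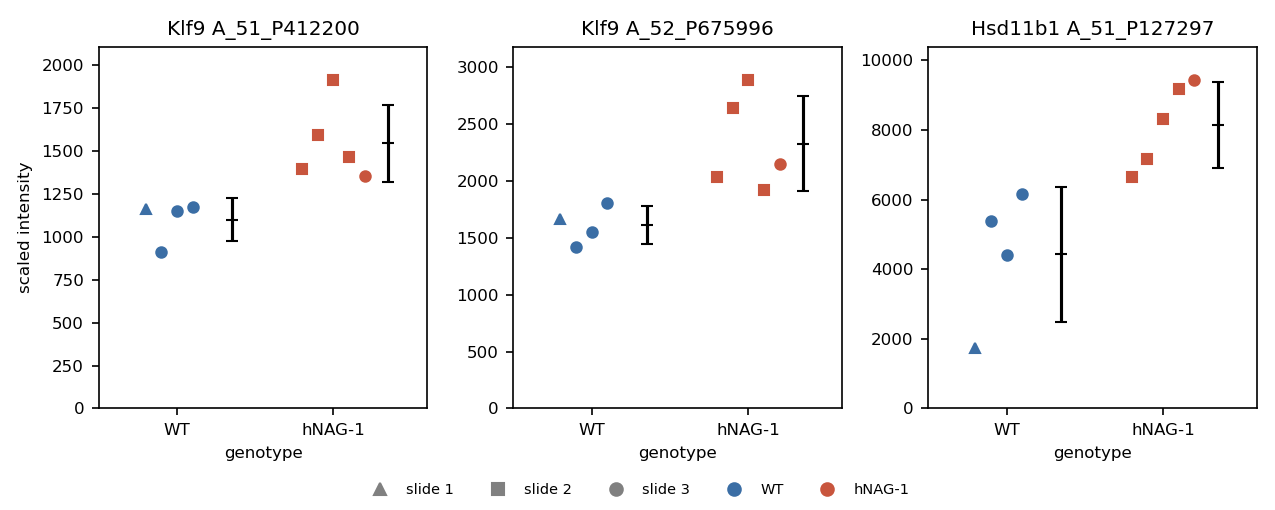
Scaled intensity of both Klf9 probes and the Hsd11b1 probe by genotype, with 1 symbol per array shaped by slide, and bars at the mean with the SD (n = 4 WT, n = 5 hNAG-1). In each panel the lowest hNAG-1 array lies above the highest WT array, for Hsd11b1 6638 against 6169.

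The remaining calls in steroid metabolism were Hsd17b12 and Hsd17b1, whose products are hydroxysteroid dehydrogenases, and neither had a single clear reading. The brighter Hsd17b12 probe was 0.44 higher on the log2 scale in hNAG-1, with a standard error of 0.18 (unadjusted p = 0.0356 by limma). The other was 0.98 lower, as a log2 difference of -0.98 with a standard error of 0.38 (unadjusted p = 0.0285 by limma). Hsd17b1 was well above background in 3 of 4 WT arrays and in no hNAG-1 array, and was lower in hNAG-1 (unadjusted p = 0.0493 by limma). Its genotypes did not overlap, but the closest readings, 25.0 in WT 3 and 24.6 in hNAG-1 4, were both not well above background. No fold is given, since WT 3 and every hNAG-1 array lacked that mark. The call was lost with normexp background correction, quantile normalization and median scaling, and it was kept with no scaling. With slide as a fixed block the brighter Hsd17b12 probe had a difference of 0.34 with a standard error of 0.34 (unadjusted p = 0.346 by limma) and the other one of -1.42 with a standard error of 0.57 (unadjusted p = 0.0377 by limma), and Hsd17b1 was not called (unadjusted p = 0.574 by limma).

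Among 17 other hormone receptors, 7 had a higher and 10 a lower mean in hNAG-1, and 1 had an unadjusted p under 0.05. This was Pgrmc2, a membrane-associated progesterone-binding protein, at a log2 difference of 0.37 with a standard error of 0.15, while its other probe gave 0.23 with a standard error of 0.18. Of 17 receptor coregulators and chaperones, 8 were higher and 9 lower. Fkbp4, a cochaperone of steroid receptors, was 0.38 higher on the log2 scale with a standard error of 0.16 on 1 probe and 0.11 with a standard error of 0.22 on the other. Ep300, a histone acetyltransferase and coactivator, had a difference of -0.43 with a standard error of 0.18 on its brightest probe, which was -0.053 with slide as a fixed block. In that fit the called Pgrmc2 probe had a difference of 0.36 with a standard error of 0.29 and the called Fkbp4 probe one of 0.33 with a standard error of 0.30. Neither these nor Ep300 passed there, with unadjusted limma p of 0.250, 0.312 and 0.864.

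Without a slide term, no call was made among 15 luminal genes that respond to estrogen or progesterone, 17 partners of the ligands or 9 genes of prolactin signaling and alveolar fate, with medians of 0.18, -0.084 and -0.051 on the log2 scale. With slide as a fixed block, Greb1 and Spdef of the first list had an unadjusted p under 0.05. Greb1 was not well above background on any array, and Spdef, a luminal transcription factor, read 315 in hNAG-1 5 against 84.6 to 164 in the WT arrays of its slide. Srd5a1 of the steroid metabolism list was also called in that fit, at 0.68 with a standard error of 0.24, against -0.024 without the slide term. These values again set hNAG-1 5 alone against 3 WT arrays, and on the shared slide alone Greb1 and Spdef were called and Srd5a1 was not. The extremes of the first list were Ly6a, which encodes a surface antigen, at 0.48 with a standard error of 0.32, and Calca, which encodes calcitonin, at -0.88 with a standard error of 0.67. Both turned with slide as a fixed block, to -0.14 and 0.27. Those of the second were Fzd6, a WNT receptor, at 0.21 with a standard error of 0.16, and Lef1, a WNT pathway transcription factor also made by lymphocytes. Lef1 was well above background on 5 of 9 arrays, so no difference is given for it. It read 1006 in WT 2 and 206 in WT 1 against 6.83 to 81.5 on the other 7 arrays, in the order of the T lymphocyte markers for those WT arrays, and the part of lymphocytes was not tested. The extremes of the third were Elf5, the transcription factor of alveolar fate, at 0.16 with a standard error of 0.20, and Socs1, an inhibitor of cytokine signaling, at -0.51 with a standard error of 0.53. Socs1 was highest in WT 2 too, at 1124 against 179 to 551 elsewhere.

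Whether a receptor and its target or partner vary together over dams was examined for 6 pairs. None of the 6 passed after Benjamini-Hochberg adjustment. Esr1 and Gata3 had a Pearson r of 0.45 (exact permutation p = 0.226, adjusted p = 0.339, n = 9) and a Spearman rho of 0.42 (exact permutation p = 0.270, adjusted p = 0.539), and r was 0.81 without the 2 arrays farthest from the Esr1 median. Single arrays moved this r, to 0.16 without WT 2, the array low in epithelial markers (exact permutation p = 0.712), and to 0.70 without hNAG-1 2 (exact permutation p = 0.0465), and it was 0.73 with median scaling (exact permutation p = 0.0248), none of these p adjusted over the pairs. Esr1 and Foxa1 had an r of -0.46 (exact permutation p = 0.209, adjusted p = 0.339, n = 9) and a rho of -0.27 (exact permutation p = 0.493, adjusted p = 0.708), and r turned to 0.28 without the 2 arrays farthest from the Esr1 median. These values take in the Foxa1 readings of hNAG-1 2 and hNAG-1 4, which were not well above background. The r of Esr1 and Foxa1 was -0.18 without hNAG-1 2 and -0.62 without WT 2. The other 4 pairs held Pgr or Areg, whose probes were not well above background on most arrays, so their r is not given. Within the slide of hNAG-1 1 to hNAG-1 4 and the shared slide, r was -0.79 and 0.63 for Esr1 and Gata3. For Esr1 and Foxa1 it was -0.27 and -0.037. With 4 arrays on each slide, whether the relations differ between slides was not tested.

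The probes most like the brighter Esr1 probe over the 9 arrays, among 23085 probes marked on all arrays, were those of Txnl1, Lenep and Abcb10, with a Pearson r of 0.975, 0.969 and 0.961 to its log2 values. All of them were highest in hNAG-1 2, and their values ran from 53.5 to 124 for Txnl1, from 436 to 885 for Lenep and from 196 to 479.6 for Abcb10. The arrays share slides and scaling, so these are descriptions of 9 arrays. No such list is given for Pgr, which had no probe well above background on all arrays.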

How the data were processed

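The authors deposited the scanner output of 9 one-color Agilent arrays, as an intensity for each feature after background subtraction by Feature Extraction 9.5.3.1, without scaling between arrays. The series table held the same intensities. The study's methods name an ANOVA at an unadjusted threshold, with further cutoffs on fold change and signal, and no normalization. The alternative fit by that ANOVA used neither cutoff.

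Control features were left out, replicate features averaged, and each array scaled to its 75th percentile before log2. All 41174 probes were fitted with limma 3.58.1 in R 4.3.3 (lmFit, eBayes, two-sided, no covariates, 7 residual degrees of freedom) with Benjamini-Hochberg adjustment. Exact permutation tests used scipy 1.17.1. A probe counted as well above background when most of its features did. The number of arrays limits the precision. In data simulated with the same group sizes and each probe's mean and spread, 79.5% of probes changed 2-fold were called without adjustment and 15.5% after it. The simulation drew independent noise without slides or a background limit, so it does not cover the overlap of slide and genotype here.

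The members, lists and tests were chosen with earlier results of these data known. Named were every member probe, each list's genes with an unadjusted p under 0.05 or otherwise its extremes, the brightest marker, and the 3 probes most like Esr1. Of 158 genes in 7 lists and 9 marker lists, 157 had a probe, 9 of these found only through an accession or older symbol in a RefSeq table, and Zbtb16 had none. Probe sequences and positions are from the scanner files. Alternatives were normexp (offset 50), quantile, median or no scaling, a floor of 20, dim probes or outlier flags left out, the methods' ANOVA, eBayes with trend and robust estimation, slide as a fixed or random block, the shared slide alone, a replicate block, single dams left out, and a gene's probes averaged.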

Additional observations from a re-analysis of the deposited data

Results flagged for a closer look

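In 34 groups of 4 or 5 arrays (17 probes in each genotype), Dixon's test at its 95% critical value set 5 single arrays apart, where chance alone sets apart about 1 group in 20. None of the 5 features carried an outlier flag of the scanner software. For Pgr, probe A_52_P413840 read 47.5 in hNAG-1 5 against 4.21 to 7.92 in the other hNAG-1 arrays. For Tnfsf11, probe A_51_P465640 read 95.7 in hNAG-1 4 against 4.14 to 8.38 in the other hNAG-1 arrays, and probe A_52_P488947 read 65.7 in WT 2 against 8.17 to 8.73 in the other WT arrays. For Nr3c1, probe A_52_P138090 read 5084 in WT 2 against 6213 to 6436 in the other WT arrays. For Foxa1, the probe read 30.4 in WT 2 against 50.7 to 55.7. WT 2 thus gave 3 of the 5 values, and its lymphocyte and epithelial markers stand in the report.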

How the results depend on the processing

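Of the 22 alternatives, the count of 1 member probe with an unadjusted p under 0.05 by limma became 0 with normexp background correction, with a floor of 20, with dim probes left out and with the methods' ANOVA, and 2 with quantile normalization. It ran from 0 to 2 when single dams were left out. The single probe was not always the same: it was the dimmer Esr1 probe with median scaling and Pgr A_52_P413840 with slide as a fixed block or on the shared slide alone. The adjusted count of 0 became 1 with slide as a fixed block, which is Pgr. The count of 1 probe without overlap became 0 with normexp, no scaling, a floor of 20 and dim probes left out, and was 1 without any single dam. The count of 8 list genes became 2 with no scaling and on the shared slide alone, and 4 with slide as a fixed or random block and with the mean over a gene's probes, and it ran from 2 (without hNAG-1 2) to 10 (without hNAG-1 5) when single dams were left out. Klf9 and Hsd11b1 were called in all 9 of those fits, but neither was called with no scaling or on the shared slide alone, nor was Klf9 with a replicate block or with slide as a fixed block. No receptor pair passed adjustment under any alternative.

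Of 198 alternative values of the 9 probes well above background, 24 changed sign and none reached an unadjusted p under 0.05, the lowest being 0.0593. With slide as a fixed block, and with the same values on the shared slide alone, the log2 difference was -0.67 for Esr1, -0.11, -0.35 and 0.024 for Nr3c1 A_52_P138090, A_52_P63106 and A_52_P254174, 0.041 for Nr3c2, 1.00 for Foxa1, -0.14 for Ly6a and 0.27 for Calca. With no scaling it was -0.099 for Nr3c1 A_52_P138090, -0.054 for A_52_P63106 and -0.11 for Wnt4. Quantile normalization gave -0.017 for Nr3c1 A_52_P138090 and 0.062 for Foxa1, and median scaling gave 0.12 for Nr3c1 A_52_P254174. When single dams were left out, values ran from -0.032 (without WT 2) to 0.10 for Nr3c1 A_52_P138090, from -0.056 (without hNAG-1 2) to 0.21 for Nr3c1 A_52_P63106, from -0.24 (without WT 2) to 0.27 for Wnt4, from -0.032 (without WT 2) to 0.26 for Elf5 and from -0.79 to 0.049 (without WT 2) for Socs1. The cause of these changes was not tested. Same-numbered WT and hNAG-1 arrays had correlations of 0.28, -0.20, -0.14 and -0.31 in their deviations from the genotype means, so the numbers do not pair the dams. With a replicate block, 1 member probe and 6 list genes had an unadjusted p under 0.05.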
